A study of Mus musculus with 6 samples.

Results

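Transcripts of 9 genes for secreted proteins of salivary, lacrimal and airway glands were followed in medullary thymic epithelial cells with and without Aire. These are genes of the mucin-like proteins Mucl1 and Mucl2, the parotid protein Bpifa2, the secretoglobin Scgb1a1 and tissue kallikrein Klk1. The others are those of epidermal growth factor Egf, the whey acidic protein relatives Wfdc18 and Wfdc21, and prolactin-induced protein Pip. RefSeq GRCm38.p6 lists Mucl1 as a transcribed pseudogene. Members were found through the array's gene annotation, which named exactly 1 of these genes for 12 of 12422 probe sets, and each probe set was kept apart. All 9 genes were represented, of 8251 genes named by such probe sets on the array. The filter on dim signals was passed by 8 of the 12, which stood for 7 genes.

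The wild-type group held 3 arrays and the Aire-deficient group 3 arrays. Each array carried RNA from 1 pool of the thymi of 5 B6/129 F2 mice of both sexes, aged 3 to 5 weeks, and the Aire-deficient mice had both copies of Aire disrupted. Cells of both groups were sorted as CD45-, G8.8+, CDR1int and B7.1hi, that is, as epithelial cells of the medulla with much of the costimulatory molecule B7.1, and their total RNA went through 2 rounds of T7 polymerase amplification. Which part of Aire was disrupted is not in the labels, and a pool hides the differences between its animals. Signals are linear intensities in arbitrary units after quantile normalization, group values are geometric means of 3 arrays, and differences are on the log2 scale as Aire-deficient minus wild-type. In such sorted bulk samples, fewer cells with a transcript and less of it per cell cannot be told apart.

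Aire is a transcriptional regulator through which thymic medullary cells transcribe genes of peripheral organs, so that T cells reactive to those proteins can be removed or diverted. Glands of the head are among the organs that are infiltrated when Aire is lost, and their secretions are dominated by a few small, abundant proteins. These coat and protect mucosal surfaces, inhibit or carry out proteolysis, or act as growth factors on the epithelium.

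RefSeq promoter entries of GRCm38.p6 existed for 6 of the 9 members. Stretches upstream of 4 of them (Mucl2, Wfdc18, Bpifa2 and Pip) are shown because they hold a TATA motif near the start, which those of Klk1 and Egf do not. Each run gives the 250 bases before the annotated start, 5′ to 3′ on the strand of the gene, and capitals mark TATAA or TATATA on that strand from 40 to 16 bases before the start. The positions are chr15:103899313-103899562 on the minus strand for Mucl2, chr11:83708754-83709003 on the plus strand for Wfdc18, chr2:154008026-154008275 on the plus strand for Bpifa2 and chr6:41847299-41847548 on the plus strand for Pip.
Mucl2: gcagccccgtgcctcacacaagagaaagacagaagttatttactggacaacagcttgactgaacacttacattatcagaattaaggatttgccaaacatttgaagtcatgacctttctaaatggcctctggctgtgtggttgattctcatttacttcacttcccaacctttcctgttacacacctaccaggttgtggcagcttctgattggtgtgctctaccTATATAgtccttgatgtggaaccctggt
Wfdc18: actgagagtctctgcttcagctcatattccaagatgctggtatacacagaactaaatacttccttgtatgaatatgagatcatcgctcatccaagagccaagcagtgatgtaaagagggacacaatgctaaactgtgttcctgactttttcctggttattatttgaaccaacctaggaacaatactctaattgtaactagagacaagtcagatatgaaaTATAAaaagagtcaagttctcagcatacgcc
Bpifa2: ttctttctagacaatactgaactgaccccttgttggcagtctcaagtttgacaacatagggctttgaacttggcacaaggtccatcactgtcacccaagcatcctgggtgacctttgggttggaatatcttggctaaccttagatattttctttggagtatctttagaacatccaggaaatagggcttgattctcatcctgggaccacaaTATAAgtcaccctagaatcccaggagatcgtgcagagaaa
Pip: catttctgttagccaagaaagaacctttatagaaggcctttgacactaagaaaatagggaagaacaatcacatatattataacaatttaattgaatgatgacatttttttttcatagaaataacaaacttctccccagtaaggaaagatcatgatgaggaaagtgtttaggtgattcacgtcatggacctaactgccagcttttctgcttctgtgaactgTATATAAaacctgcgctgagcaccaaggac

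TATATA began 28 bases before the start of Mucl2, TATAA 31 before that of Wfdc18 and 40 before that of Bpifa2, and in Pip TATATA at 30 and TATAA at 28 overlapped. Of 32851 promoters in the table, 3.52% had TATAA and 0.944% TATATA in the same window and on the same strand. Over the whole 250 bases and both strands the shares were 22.8% and 5.25%. Neither motif lay in the 250 bases before the starts listed for Klk1 and Egf. CCAAT, searched on both strands, lay 44 bases before the start of Mucl2 on the other strand and 139 before that of Klk1, and in 33.8% of all promoters. The 4 printed stretches held 1, 2, 1 and 2 CpG dinucleotides, against a median of 6, and 29% of all promoters held 2 or fewer. Of those not printed, that of Klk1 held 0 and those of Egf 0 and 15. These are descriptions of letters. Pip, with the same motif, gave no signal above the dim limit in either genotype.

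The transcripts of Mucl2 and Wfdc18 fell in the Aire-deficient cells. Mucl1, Bpifa2, Scgb1a1, Wfdc21 and the brighter Klk1 probe set were also lower on every Aire-deficient array than on every wild-type array, without passing the threshold of 0.05 for the adjusted p in the unpaired limma fit. Egf, Pip and the other Klk1 probe set were too dim to be tested. In that fit 3 member probe sets were lower and 0 higher, or 8 lower with the replicate number as a block. Of all 7768 tested probe sets, 1.38% were called lower and 0.348% higher, and 3.37% lower with the block. The groups did not overlap, with the Aire-deficient arrays lower, for 8 of the 12 member probe sets and for 7.86% of all 12422. Members were chosen with earlier results of these data known, so their counts beside these shares are descriptions and not independent support. Among the 8 tested member probe sets 3 (Mucl2 94152_at, Mucl1 and Bpifa2) passed the filter through the wild-type arrays alone, so they had to be lower, and their count supports nothing. The median of all tested probe sets was 0.05, and the differences of the other 5 members were -3.54 for Mucl2 162108_f_at, -2.25 for Scgb1a1, -1.85 for Wfdc18, -1.57 for Klk1 and -1.41 for Wfdc21.

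**Figure D1:**
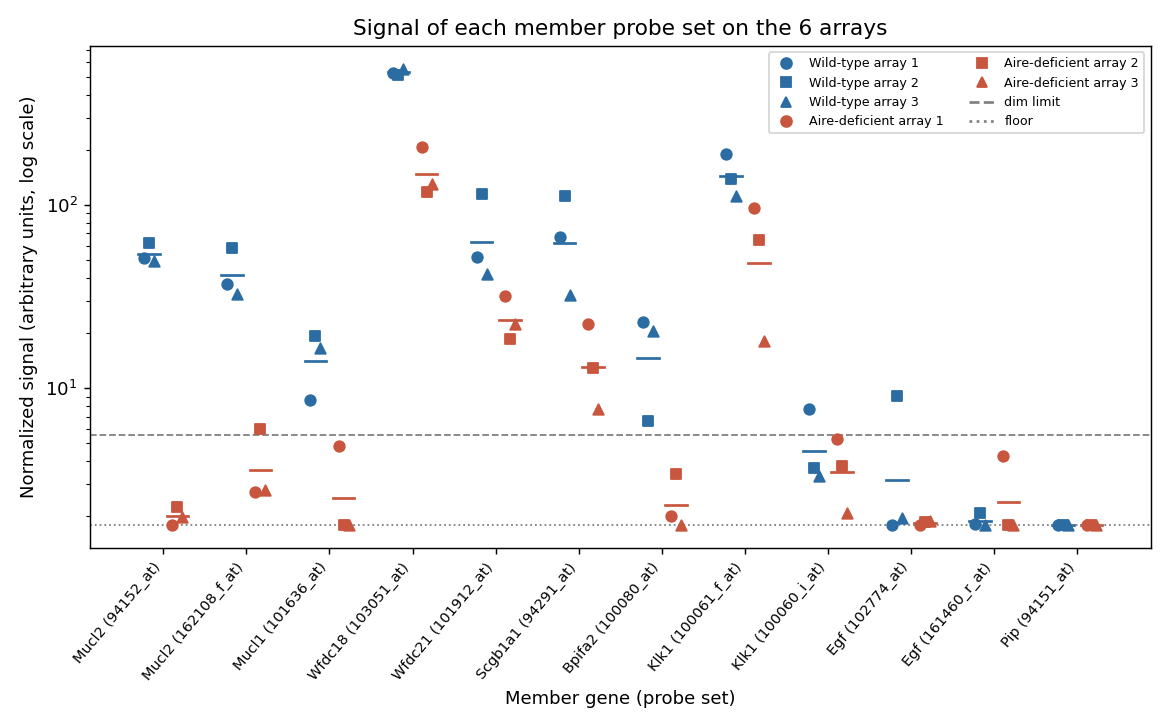
Normalized signal of the 12 member probe sets (x axis) on each of the 6 arrays (y axis, arbitrary units, log scale, with signals under the floor of 1.8 drawn at it). Blue points are wild-type and red points Aire-deficient arrays, bars are geometric means of 3 arrays, and the dashed line is the dim limit of 5.53; the 8 probe sets on the left have every red point below every blue point, and Pip lies at the floor throughout.

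Mucl2, a mucin-like protein of salivary glands, had the largest difference of the members. Its probe set 94152_at gave signals of 51.4, 62.4 and 49.4 in wild type (arrays 1, 2 and 3, an order kept throughout) and of 1.57, 2.25 and 1.98 without Aire. The wild-type arrays lay close together and all Aire-deficient arrays lay under 5.53, the 40th percentile of all signals, which serves as the dim limit. With signals under the floor of 1.8 (the 20th percentile) raised to it, Mucl2 fell from 54.1 (SD 0.18 log2, n = 3) to 2 (SD 0.16, n = 3), at least 9.78-fold against the dim limit. The log2 difference was -4.76 ± 0.34 (SE; 95% interval -5.51 to -4.0, limma adjusted p = 0.000249). Its size depends on the floor, and with the floor at the dim limit it was -3.29 (adjusted p = 0.00213).

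The other Mucl2 probe set, 162108_f_at, is of a family design and may also bind related transcripts. It gave 37.2, 58.3 and 32.6 in wild type and 2.7, 6 and 2.78 without Aire. Wild-type array 2 was the highest of its group, and the groups stood far apart. The log2 difference was -3.54 ± 0.42 (SE; 95% interval -4.46 to -2.61, limma adjusted p = 0.00403). Of the 3 Aire-deficient arrays, 2 were under the dim limit, so no fold is given. Its call was lost without wild-type array 3 (adjusted p = 0.0529) and with no filter on dim signals (0.0824).

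Mucl1 lies beside Mucl2 on chromosome 15 in RefSeq GRCm38.p6, which lists it as a transcribed pseudogene. Its signals were 8.58, 19.3 and 16.6 in wild type and 4.87, 1.38 and 1.38 without Aire. Every Aire-deficient array was under the dim limit, and arrays 2 and 3 were at the floor. Mucl1 measured 14 and 2.51, at least 2.53-fold, with a log2 difference of -2.48 ± 0.57 (SE; limma adjusted p = 0.0603, or 0.0328 with the block). Because Mucl1 and Mucl2 are near relatives, their probe sets may not separate them fully. The next gene on the other side, Glycam1, an adhesion mucin, was too dim to be tested in either genotype (2.1 and 2.23), and Ppp1r1a, a phosphatase inhibitor gene beyond it, measured 5.34 and 2.9 (limma adjusted p = 0.708).

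Wfdc18, a small secreted protein with a whey acidic protein core, known as extracellular proteinase inhibitor, was bright in both genotypes. Wild-type arrays gave 526, 514 and 554 and Aire-deficient arrays 206.5, 118 and 130. The wild-type values were the tightest of any tested member (SD 0.055 log2, n = 3), and Aire-deficient array 1 lay above the other two. Wfdc18 fell from 531 to 147, 3.62-fold, with a log2 difference of -1.85 ± 0.28 (SE; 95% interval -2.48 to -1.23, limma adjusted p = 0.0106). No array lay near the floor or the dim limit, so the floor did not touch this value. The call was lost with no filter on dim signals (adjusted p = 0.0879) and without wild-type array 1 (adjusted p = 0.0557), wild-type array 3 (0.0767) or Aire-deficient array 2 (0.0684).

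Wfdc21, another protein of this fold, is the next protein-coding gene to Wfdc18 on chromosome 11. It gave 51.9, 115 and 41.9 in wild type and 31.8, 18.6 and 22.4 without Aire. The groups did not overlap, but wild-type array 3 and Aire-deficient array 1 came close, and wild-type array 2 lay well above the rest. Wfdc21 measured 63.1 and 23.7 (log2 difference -1.41 ± 0.42 SE, 95% interval -2.33 to -0.50, limma adjusted p = 0.136, or 0.0481 with the block). Without wild-type array 2 the difference was -1.0 (adjusted p = 0.241). Ccl4, a chemokine gene on the far side of the cluster, measured 5.23 and 5.11.

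Scgb1a1, the uteroglobin-like main secretory protein of airway club cells, was lower on all Aire-deficient arrays. It gave 67.2, 112 and 32.2 in wild type and 22.5, 12.8 and 7.73 without Aire. Both groups were spread widely (SD 0.90 and 0.77 log2, n = 3 each), and within a group the order of the arrays was not that of their numbers in wild type. The means were 62.3 and 13.1, 4.77-fold apart, with a log2 difference of -2.25 ± 0.51 (SE; 95% interval -3.37 to -1.14, limma adjusted p = 0.0553). With the block the adjusted p was 0.00334, and without wild-type array 2 the difference was -1.86 (adjusted p = 0.151). On the neighbouring genes of chromosome 19 the large scaffold gene Ahnak measured 455 and 273 (limma adjusted p = 0.32), while Asrgl1 and Eef1g were too dim to be tested.

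Bpifa2, a parotid secretory protein of the family that binds bacterial lipids, gave 22.9, 6.59 and 20.6 in wild type and 2.02, 3.42 and 0.683 without Aire. All Aire-deficient arrays were under the dim limit, and wild-type array 2 lay close above it, below the other two. Bpifa2 measured 14.6 and 2.31, at least 2.64-fold, with a log2 difference of -2.66 ± 0.59 (SE; limma adjusted p = 0.0527, or 0.0266 with the block). Wild-type array 2, which was high for most other members, was thus the low one here, and without it the difference was -3.26.

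**Figure D2:**
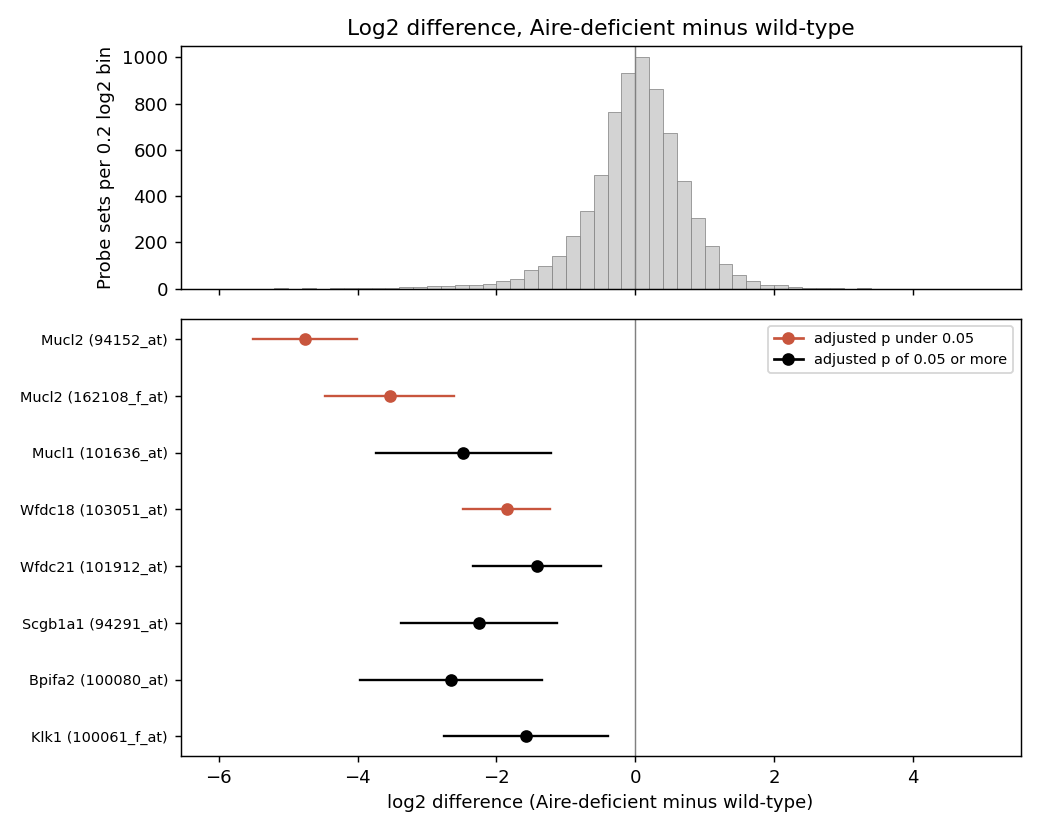
The upper panel counts the 6987 tested probe sets with 1 gene by log2 difference (x axis, Aire-deficient minus wild-type, bins of 0.2). The lower panel gives each tested member probe set with its 95% interval from limma, red where the adjusted p was under 0.05; all 8 lie below 0, from -4.76 for Mucl2 to -1.41 for Wfdc21.

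Klk1, tissue kallikrein, is a serine protease of saliva that frees kinin peptides from kininogen. Its family-design probe set 100061_f_at gave 190, 138 and 112 in wild type and 96.3, 64.8 and 18.2 without Aire. The lowest wild-type array and the highest Aire-deficient array were close, and Aire-deficient array 3 lay far below the rest. Klk1 measured 143 and 48.4 on it (log2 difference -1.57 ± 0.54 SE, 95% interval -2.75 to -0.39, limma adjusted p = 0.203, or 0.0195 with the block), and without Aire-deficient array 3 the difference was -0.85 (adjusted p = 0.433). The second probe set, 100060_i_at, gave 7.73, 3.68 and 3.33 against 5.32, 3.78 and 2.08, so its groups overlapped and it was not tested. It lay under the dim limit on 5 of 6 arrays. How much of the brighter signal comes from Klk1 itself was not tested.

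The other kallikreins lay mostly on the same side of 0. Of 13 tested probe sets for 11 such genes, 0 were called lower or higher in the limma fit and 4 were lower with the block, and 12 lay below 0 (median -1.08, range -2.39 to 0.13). Klk1b1 gave means of 260 and 84.6 (limma adjusted p = 0.163, blocked 0.021), Klk1b22, 179 and 62.7 (0.237, or 0.0237), Klk1b21, 35 and 13.2 (0.226, or 0.0486), and Klk6, a kallikrein of skin and brain, 19.6 and 3.74 (0.157, or 0.0315). On all 8 family-design probe sets of other kallikreins, Aire-deficient array 3 was the lowest of the 6 arrays. The Klk1b genes are close copies of Klk1 in a cluster on chromosome 7, so these probe sets may bind each other's transcripts and cannot be counted as separate measurements.

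**Figure D3:**
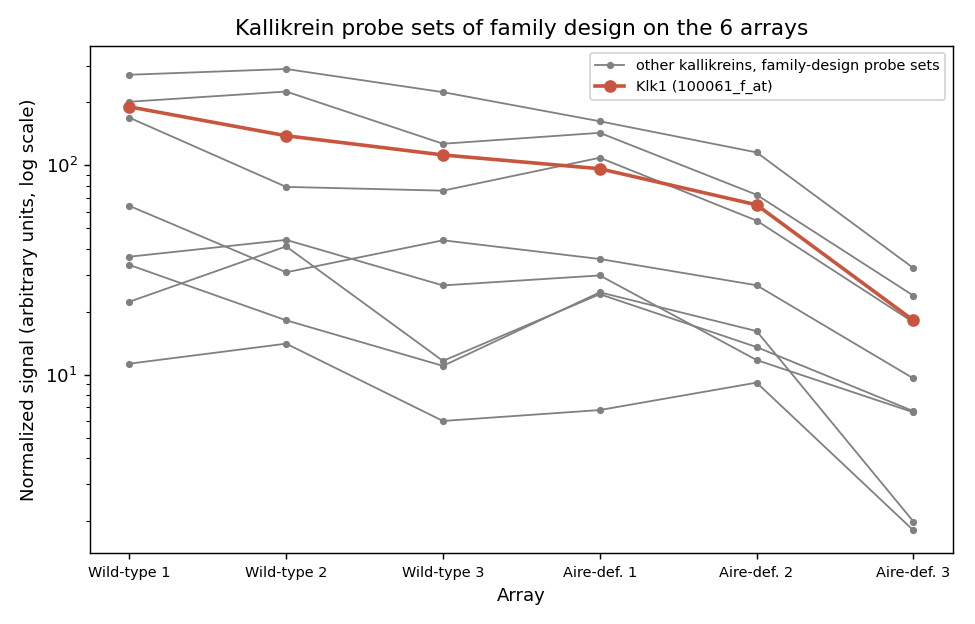
Normalized signal (y axis, arbitrary units, log scale) of the Klk1 probe set 100061_f_at (red) and of 8 family-design probe sets for other kallikreins (grey) on the 6 arrays (x axis). Lines only join the values of 1 probe set; every line is lowest on Aire-deficient array 3, where Klk1 measured 18.2.

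Egf, which salivary ducts of mice secrete in quantity, was not detected above the dim limit on most arrays. Probe set 102774_at gave 0.717, 9.1 and 1.96 in wild type and 1.13, 1.87 and 1.88 without Aire, so wild-type array 2 alone exceeded the limit. Probe set 161460_r_at gave 1.82, 2.08 and 0.467 against 4.25, 0.567 and 0.467. Pip, a protein of tears and saliva, lay under the floor on all 6 arrays, at 1.7, 1.2 and 1.13 in wild type and 0.3, 0.917 and 0.817 without Aire. Whether these transcripts differed between the genotypes could not be measured at this brightness.

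Of the other EGF family ligands and receptors, 2 of 12 probe sets were bright enough to be tested and 0 were called. Erbb3, a receptor of neuregulins, gave 73.2, 102 and 55.2 in wild type and 37.4, 31.5 and 32 without Aire, with no overlap (log2 difference -1.15 ± 0.32 SE, limma adjusted p = 0.118, or 0.0385 with the block). Hbegf, a ligand of the EGF receptor, measured 15.7 and 11.8 (adjusted p = 0.65).

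The whey acidic protein list outside Wfdc18 and Wfdc21 had 5 tested probe sets for 2 genes, of which 2 were lower and 0 higher. Both were of Slpi, a protease inhibitor of mucosal secretions that neutrophils also make. Slpi fell from 73 to 18.1 on 161650_at and from 27 to 4.39 on 92858_at (limma adjusted p = 0.0329 for both). Its probe set 162329_r_at ran the other way without passing, at 3.49 and 7.09 (adjusted p = 0.596), with wild-type arrays 2 and 3 at the floor. Both calls of Slpi were lost without any one of the wild-type arrays or without Aire-deficient array 2 (adjusted p from 0.0557 to 0.128), and that of 161650_at also without either of the other Aire-deficient arrays (0.0789 and 0.114). Wfdc2, an epithelial secretory protein, measured 36.7 and 20.4 (adjusted p = 0.456).

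Among other salivary and lacrimal genes, 1 of 11 tested probe sets was lower and 0 were higher (median -0.54, 7 of 11 below 0). That one was Ltf, the iron-binding lactoferrin of tears, saliva and neutrophil granules, which fell from 24.9 to 2.29 (at least 4.49-fold, limma adjusted p = 0.0057, or 0.0861 with no filter). Ltf was dim on all 3 Aire-deficient arrays and passed the filter through the wild-type arrays alone. Slc12a2, the chloride importer of acinar cells, measured 76.9 and 37.7 (adjusted p = 0.239), Pigr, the transporter of IgA into secretions, 270 and 145 (0.362), and Agr2, a disulfide isomerase of mucous cells, 6.71 and 3.32 (0.516). Of the airway list 0 of 11 tested probe sets were called, or 2 with the block, and 9 lay below 0 (median -0.53). Hp, haptoglobin, gave means of 43.7 and 12.7 (limma adjusted p = 0.0574, blocked 0.00546), Tff2, a trefoil peptide, 35.2 and 9.65 (0.119, or 0.0173), Cyp4b1, a lung cytochrome, 21.2 and 6.9 (0.231), and Cyp2f2, a club cell cytochrome, 18.9 and 10.8 (0.36).

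Arrays of the same replicate number are set against each other because they deviated together. The labels give no such pairing, and it was read from these same arrays, as were the blocked fits that rest on it. The correlation of deviations from the group mean was 0.372, 0.198 and 0.193 in the 3 pairs. Between arrays of opposite groups with different numbers it was -0.253 to 0.068. Deviations sum to 0 within a group, so part of this contrast is built in. Since the groups did not overlap for the 8 tested member probe sets, every pair had to be lower, and only the sizes are described. Mucl2 94152_at differed by -4.84, -4.79 and -4.64 in pairs 1 to 3, and the floor bounds the value of pair 1. Mucl1 and Bpifa2 varied most, with -0.82, -3.42 and -3.20 for Mucl1 and -3.50, -0.95 and -3.52 for Bpifa2. The floor bounds pairs 2 and 3 of Mucl1 and pair 3 of Bpifa2. All 3 Aire-deficient arrays lay under the dim limit for each of these probe sets. Pair 1 had the smallest difference for Mucl1, Wfdc18 (-1.35, against -2.13 and -2.09), Wfdc21 (-0.71), Scgb1a1 (-1.58) and Klk1 100061_f_at (-0.98). Pair 2 had the smallest for Bpifa2 and Mucl2 162108_f_at (-3.28), and pair 3 for Mucl2 94152_at.

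**Figure D4:**
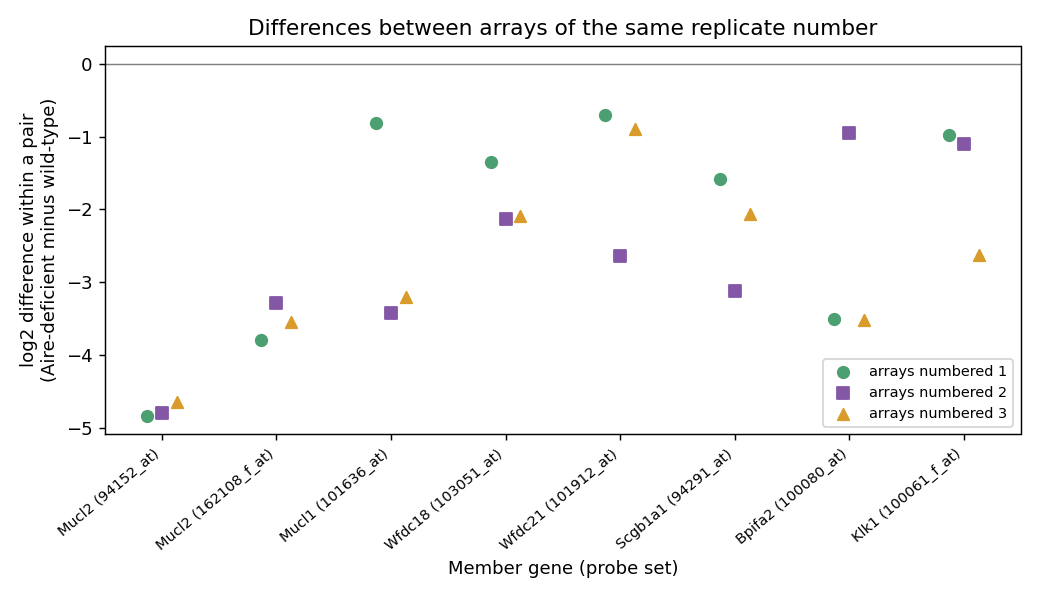
Log2 difference between the Aire-deficient and the wild-type array of the same replicate number (y axis) for the 8 tested member probe sets (x axis), 1 symbol for each of the 3 pairs. Points below 0 follow from groups that do not overlap, so the spread is what the plot adds: the 3 of Mucl2 94152_at lie between -4.84 and -4.64 and those of Mucl1 between -3.42 and -0.82.

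Profiles most like those of the leading members were looked for by the root mean square difference between log2 profiles over the 6 arrays, each centred on its own mean. Nearest to Mucl2 94152_at were Tff3, a goblet cell trefoil peptide (75.5 and 2.24), Csn1s1, a milk casein (63.5 and 2.42), Fabp2, an intestinal fatty acid binding protein (39.1 and 3.35), Igf2, a fetal growth factor (138 and 6.89), and Ins2, insulin (31.3 and 1.85), all of which fell. Each of these but Igf2 was dim on every Aire-deficient array, so it passed the filter through the wild-type arrays alone and had to be lower. Nearest to Wfdc18 were Tac1, a tachykinin precursor (20.4 and 5), and Hopx, a homeodomain protein (160 and 56.6), which fell, and C4bp, a complement regulator (18.7 and 6.22), Rnase1, a pancreatic ribonuclease (7.88 and 2.63), and Sytl4, a granule transport protein (10.5 and 2.36), which did not pass. Rnase1 and Sytl4 were likewise dim on every Aire-deficient array and had to be lower. The call of Hopx was lost in 14 and that of Tac1 in 12 of 25 alternatives (adjusted p from 0.0511 to 0.151 and from 0.0601 to 0.119). With 6 arrays in 2 groups this measure mostly ranks genes by the size of the genotype difference.

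Some measures of the arrays moved with these results. The beta-actin 3' over 5' ratio, a sign of RNA quality or amplification, was 95.8 on wild-type array 2 and 4.38 to 13.8 on the other 5. For Gapdh the ratio was 87.9, 26.3 and 8 on wild-type arrays 2, 3 and 1, and 5.94 to 16 on the Aire-deficient arrays. Wild-type array 2 was the highest of its group for 5 of the 8 tested member probe sets. Without it 2 member probe sets were called, or 4 with the probe sets of the 6-array filter kept. With the actin ratio as a term in the fit, 4 were called, both of Mucl2, Wfdc18 (-1.93, limma adjusted p = 0.0112) and Bpifa2 (-3.29, 0.0211). Granulocyte markers were lower without Aire: 6 of 9 tested probe sets fell, and the summed signal of 10 genes was 329 to 844 in wild type and 93.8 to 114 without Aire. Ly6g, Ngp, Camp, S100a8, S100a9 and Ltf were those that fell, and Ly6g, Ngp and Ltf passed the filter through the wild-type arrays alone. Mpo measured 11.4 and 3.27 (limma adjusted p = 0.223) and Lcn2 21.8 and 18.5, Elane was under the dim limit on all 6 arrays, and Prtn3, not tested, measured 3.29 and 5.84 with the Aire-deficient arrays higher. The cells were sorted as CD45-, a gate meant to leave out granulocytes, and how fully it did so was not measured. Their part in the falls of Slpi and Ltf, or in any member's difference, was not tested. T cell markers summed to 62.9 to 115 and 70.2 to 143, with 0 of 8 tested probe sets called. Rag1 (9.76 and 18.7) and Ptprc (5.83 and 8.62) were higher without overlap, and Thy1, Cd4 and Zap70 had lower means. Dendritic cell and macrophage markers summed to 165 to 186.5 and 170 to 203, with 0 of 6 called. Cd68 (6.85 and 21.45) was higher without overlap, and Csf1r (30.8 and 10.6) lower with overlap. Fcer1g (2.525 and 11.2) passed the filter through the Aire-deficient arrays alone and had to be higher. Of 15 medullary epithelial markers measured, 0 of 14 tested probe sets were called, Krt5 and Krt14 were dim on all 6 arrays, and the sums, of which H2-Aa is the largest part, were 5008 to 5612 and 6323 to 7103. Among those not called, Epcam measured 197 and 89.2, with the Aire-deficient arrays lower and no overlap (limma adjusted p = 0.118). H2-Aa (1981 and 2331), H2-Ab1 (653 and 1131) and Ctss (544 and 923) were higher, also without overlap. After quantile normalization H2-Aa had the same value on all 3 Aire-deficient arrays, so its size there follows from its rank. Cd80, the gene of B7.1, measured 8.74 and 14.5 with overlap (limma adjusted p = 0.482). Tnfrsf11a (2.99 and 6.99) passed the filter through the Aire-deficient arrays alone, so it had to be higher. The single Aire probe set gave 202, 297 and 211 in the mutants against 59.9, 96.4 and 138 in wild type. It was higher without overlap but not called (limma adjusted p = 0.0918), and thus gives no check of the genotype labels.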

How the data were processed

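Each deposited table holds 1 intensity per probe set, taken as linear from its range. The method behind it (software, background, scale): not given in the sources used here. Detection calls were not used. Of 12488 probe sets, 66 controls were left out. The platform annotation named 1 gene for 10833 of the rest, several for 396 and none for 1193, and 10817 matched RefSeq GRCm38.p6 by Entrez identifier.

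Trimmed means, 2% off each end, differed between arrays (19.6 to 26.9), so signals were quantile normalized. Signals were raised to the pooled 20th percentile (1.8) and log2 transformed. The 7768 probe sets that exceeded 5.53, the pooled 40th percentile, on 3 or more arrays were tested with limma 3.58.1 in R 4.3.3 (variance trend, 2-sided) and Benjamini-Hochberg adjustment over all 7768, at a threshold of 0.05. The fit was tested on simulated data.

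Same-number pairs deviated together by more than 0.1 each, and the numbers are treated as pairs on that ground alone, their meaning being unlabelled. Members and lists were chosen with earlier results of these data known. All member probe sets were named, with up to 4 probe sets of the smallest p per related list and the 5 nearest profiles. Pools are separate samples of animals, and their number limits the precision. The fit was repeated with other scalings, filters, floors, array weights and variance models, with 1 probe set per gene, with the block and without each array. Figures were drawn with matplotlib 3.10.9.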

Additional observations from a re-analysis of the deposited data

How the results depend on the processing

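The 3 lower and 0 higher calls among the member probe sets, and the 107 lower and 27 higher calls in all, depended on the pairing and on the arrays kept. With the replicate number as a block, 8 member probe sets were lower, and 262 probe sets were lower and 150 higher in all. With array weights the counts were 6, 166 and 72. On the values as deposited 6 members were lower and 71 probe sets higher, and after median scaling 55 were higher, where the median of all tested probe sets was 0.17 in both. Without a filter on dim signals 1 member, Mucl2 94152_at, was lower, with 10 lower and 6 higher in all. With 1 array left out, 0 to 5 members, 2 to 78 probe sets lower and 0 to 16 higher were called. The 0 came without wild-type array 3, where Mucl2 94152_at failed the filter, as it did without either of the other wild-type arrays, and Mucl2 162108_f_at (adjusted p = 0.0529) and Wfdc18 (0.0767) lost their calls. With the block and without the arrays numbered 2, 5 members were lower. This setting, the 6-array filter kept and a term for the actin ratio were chosen after seeing the data. Each of the 8 tested member probe sets stayed below 0 in all 25 alternatives. Their groups did not overlap, so leaving out an array could hardly change this sign. Another filter or variance model leaves the difference as it was, so the sign in these alternatives supports nothing. Mucl2 94152_at was lower in each of the 21 that tested it, Mucl2 162108_f_at in 23 of 25 and Wfdc18 in 19 of 25. Slpi 162329_r_at turned to -0.059 with a floor at the 40th percentile. Dim signal limits Egf, Pip and Klk1 100060_i_at.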

Other observations

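One further probe set, 94153_g_at, names both Mucl1 and Mucl2 and so stands outside the member probe sets. It gave 23.7, 8.89 and 23.4 in wild type and 1.13, 2.35 and 0.917 without Aire. The log2 difference was -3.11 ± 0.53 (SE; limma adjusted p = 0.0173), at least 3.08-fold against the dim limit. All 3 Aire-deficient arrays were dim, so it passed the filter through the wild-type arrays alone and had to be lower. The signal cannot be assigned to one of them.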
